A study of Mus musculus with 32 samples.

Results

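Arg1, Chil3, Chil4, Retnla and Nos2 were followed across ear and back skin of NC/Nga mice, an inbred strain used as a model of dermatitis. The 5 genes were taken as the array rows that the platform annotation assigns to these symbols. Each symbol had 1 row, so that 5 of the 19505 genes with a symbol on the array were described. Expression was measured in 8 mm punches on 32 arrays of the Mouse Clariom D type, 1 sample each, in 4 groups of 8: HDM-treated ear, sham ear, HDM-treated back skin and sham back skin. All groups were of the NC/Nga strain. The labels name the agents only as HDM and sham, and age, sex, dose, duration and the sham procedure were not among the labels used here. Mouse numbers 1 to 8 recur in every group, and whether ear and back skin with 1 number came from the same animal is not stated. P-values measure the spread between these samples.

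Arginase 1 and the inducible nitric oxide synthase Nos2 use the same substrate, L-arginine. Arginase 1 cleaves it to urea and ornithine, the precursor of polyamines and proline, and Nos2 turns it into nitric oxide and citrulline. Chil3 (also called Ym1) and Chil4 (Ym2) are secreted chitinase-like proteins that bind sugars without cleaving chitin, and Retnla (RELM-alpha, Fizz1) is a secreted protein of the resistin-like family. In mouse macrophages, IL-4 and IL-13 acting through STAT6 are known to induce Arg1, Chil3 and Retnla, while interferon gamma and bacterial products induce Nos2. None of these genes is restricted to macrophages: keratinocytes can make Arg1, neutrophils Chil3, and adipose tissue Retnla.

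Chil3 and Chil4 had higher means with HDM at both sites, as did Arg1 and Nos2. The Retnla mean fell in back skin. Promoters are shown for Chil3, Chil4 and Retnla, because the promoter set used held none for Arg1 and Nos2. They come from RefSeq (GRCm38.p6) and run from 250 bases before to 50 bases after the transcript start. Capitals mark matches to TTC and GAA with 4 bases between them (the spacing known for STAT6), TTCNNNGAA (other STAT factors), TTGCNNAA (C/EBP type) and TATAAA, searched on both strands. They lie at chr3:106167515-106167814 on the minus strand (Chil3), chr3:106219430-106219729 on the minus strand (Chil4) and chr16:48842359-48842658 on the plus strand (Retnla).
Chil3: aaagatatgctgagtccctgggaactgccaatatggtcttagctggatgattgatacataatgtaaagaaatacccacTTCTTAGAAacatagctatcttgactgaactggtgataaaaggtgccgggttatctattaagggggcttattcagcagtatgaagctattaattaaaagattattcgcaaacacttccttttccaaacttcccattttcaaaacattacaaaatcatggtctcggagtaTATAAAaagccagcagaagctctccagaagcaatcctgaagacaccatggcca
Chil4: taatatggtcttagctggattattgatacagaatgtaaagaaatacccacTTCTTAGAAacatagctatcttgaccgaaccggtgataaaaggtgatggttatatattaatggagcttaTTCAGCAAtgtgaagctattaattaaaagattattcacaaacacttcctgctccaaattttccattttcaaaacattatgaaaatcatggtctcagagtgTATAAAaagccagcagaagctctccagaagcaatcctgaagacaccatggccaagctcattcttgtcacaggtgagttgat
Retnla: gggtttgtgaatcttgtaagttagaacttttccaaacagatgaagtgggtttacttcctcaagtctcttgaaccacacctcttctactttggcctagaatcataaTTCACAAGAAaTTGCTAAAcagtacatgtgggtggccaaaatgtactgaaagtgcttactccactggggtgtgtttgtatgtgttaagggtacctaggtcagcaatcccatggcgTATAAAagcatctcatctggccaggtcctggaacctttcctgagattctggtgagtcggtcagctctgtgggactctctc
The Chil3 and Chil4 windows aligned over 272 columns with 251 identical bases, 92.3%, and both hold TTCNNNGAA and TATAAA. Relative to the annotated start, TATAAA lay at bases -3 to 2 in Chil3 and at -31 to -26 in Chil4. TTGCNNAA matched in Chil4, on the reverse strand, and in Retnla. The 4-base spacing matched in the Retnla window, at bases -145 to -136 from the start. Among 32851 promoter windows of the same length, 6.95% held the 4-base spacing, 8.30% TTCNNNGAA, 10.8% TTGCNNAA and 13.6% TATAAA. A match describes the letters and is no evidence of binding. Probe and transcript sequences were not compared, and the promoter identity does not tell whether probes of 1 gene pick up transcripts of the other. The separate values of Chil3 and Chil4 are uncertain to that extent.

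All levels below are log2 values made by the authors with RMA, and a difference of 1 is a 2-fold change. The values span 1.71 to 19.93, wide for RMA. Whether they were rescaled afterwards could not be told from the files, and folds hold only if they were not. Groups were compared with limma over the 4 groups, with Benjamini-Hochberg adjustment over 22206 rows, and a difference was called at an adjusted p under 0.05. The SE of each difference rests on 1 spread per row shared by the 4 groups, not on the groups compared alone. The background of an array was the median of its negative-control rows, 4.43 to 5.38. Keratinocyte genes such as Krt5 and Krt14 lay above it on all 32 arrays. Sham back skin mice 1 and 2 stood apart in their group, with the highest macrophage and neutrophil marker means. A punch holds many cell types, and fewer cells of a type and less RNA per cell cannot be told apart.

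In HDM-treated ear, Arg1, Chil3, Chil4 and Nos2 rose relative to sham ear, 4 of the 5 genes, where 16.4% of all rows rose and 15.5% fell. In HDM-treated back skin, Arg1 and Chil3 rose and Retnla fell relative to sham back skin. Among all rows, 6.18% rose and 8.56% fell there. These shares of all rows at each site are the measure for every count of list genes given below. The median difference of the 5 genes was 4.10 in ear and 1.97 in back skin, against -0.02 and 0.01 over all rows.

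**Figure D1:**
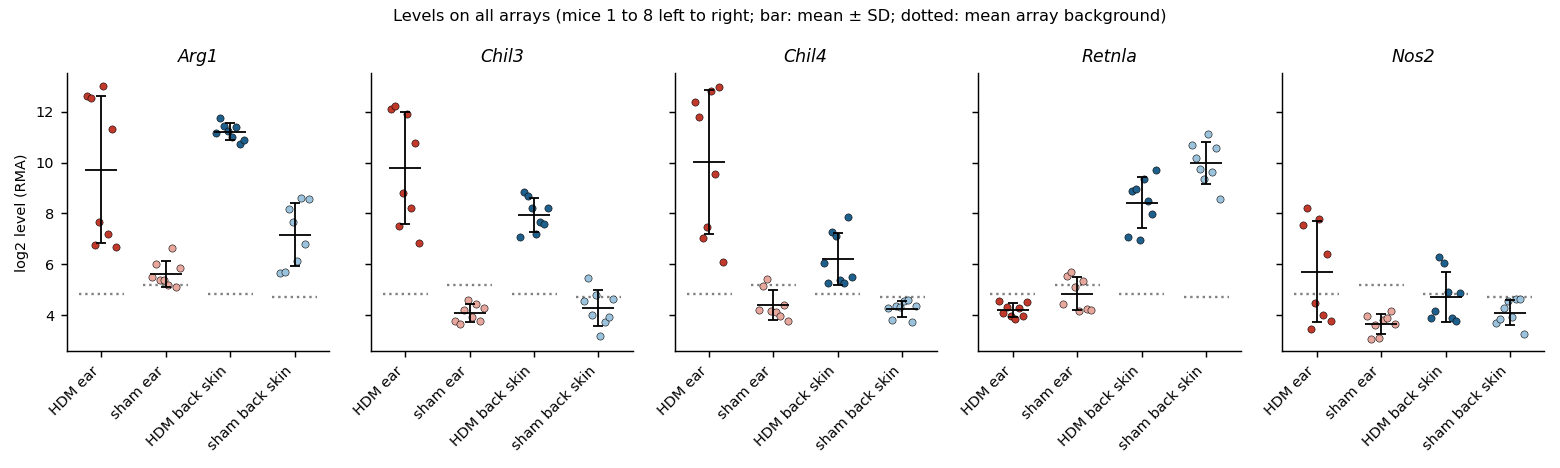
Log2 RMA levels of the 5 genes on all 32 arrays, by group on the horizontal axis (1 point per array, mice 1 to 8 from left to right within a group). Bars give the mean and SD of 8 arrays, and dotted lines the mean array background of the group. The HDM ear points of Arg1 run from 6.67 to 13.02, and the Retnla points of HDM ear all lie under the background.

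Arg1 lay between 6.67 and 13.02 in HDM-treated ears, with a median of 9.49, and between 5.12 and 6.64 in sham ears, with a median of 5.44. Its back skin level lay between 10.73 and 11.77 in HDM-treated samples (median 11.21) and between 5.66 and 8.60 in sham samples (median 7.24). At both sites every HDM-treated sample was above every sham sample, but the treated ears were spread over 6.35 log2 units and the treated back skins over 1.04. The difference was 4.10 ± 0.75 (SE, n = 8 each) in ear, 17.1-fold, with a limma adjusted p of 6.97e-05. It was 4.04 ± 0.75 in back skin, 16.5-fold, with an adjusted p of 0.000292. The SE was equal at both sites because the fit shares 1 spread per gene over the 4 groups, whose SDs were 0.34 to 2.89. The exact permutation p (two-sided) was 0.000155 at both sites, the smallest that 8 against 8 samples allow. The HDM effects differed by 0.05 ± 1.06 between ear and back skin (adjusted p = 0.985), with a 95% interval of -2.11 to 2.22, wide enough to hold a 4-fold difference either way.

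The mean Arg1 level was highest in HDM-treated back skin (11.21 ± 0.34, SD), followed by HDM-treated ear (9.72 ± 2.89), sham back skin (7.17 ± 1.25) and sham ear (5.63 ± 0.51). Each neighbouring pair in that order overlapped. HDM-treated ear and HDM-treated back skin differed by -1.49 ± 0.75 (adjusted p = 0.148). This difference was called without the HDM ear of mouse 5 (-1.96, adjusted p = 0.0419). Sham ear and sham back skin differed by -1.54 ± 0.75 (adjusted p = 0.128; exact permutation p = 0.00730), and 5 of 8 sham ears lay below the lowest sham back skin. Sham back skin itself was uneven, with 5.66 and 5.71 in mice 1 and 2 and up to 8.60 in mouse 6. Without these 2 mice, doubted from earlier results of these data, the back skin effect of HDM was 3.55 (adjusted p = 0.00261).

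Of 25 genes of arginine and polyamine metabolism other than Arg1, 20 were measured. In ear, 10 of them rose and none fell by limma. In back skin, 2 rose and 2 fell, near the shares of all rows (6.18% and 8.56%). In ear, 16.4% of all rows rose and 15.5% fell. The median difference was 0.63 in ear and 0.10 in back skin. Arg2, the mitochondrial arginase, averaged 8.83 ± 2.49 in HDM-treated ear and 5.50 ± 0.32 in sham ear (SD, n = 8 each), a rise of 3.33 ± 0.66 (adjusted p = 0.000165). Its mean in back skin was 8.03 ± 0.37 with HDM and 7.14 ± 1.18 with sham (adjusted p = 0.415). Slc7a1, the cationic amino acid carrier that brings arginine into cells, rose by 1.58 ± 0.23 in ear (adjusted p = 3.29e-06) and differed by 0.07 ± 0.23 in back skin (adjusted p = 0.885).

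Several genes of the polyamine branch changed. In ear, Odc1, which decarboxylates ornithine to putrescine, rose by 1.89 ± 0.32 (adjusted p = 2.92e-05), and the spermidine synthase Srm by 2.07 ± 0.24 (adjusted p = 8.45e-08). In back skin neither passed the test, with 0.77 ± 0.32 for Odc1 and 0.60 ± 0.24 for Srm. The genes that rose at both sites were Smox and Sat1, which oxidise and acetylate polyamines. Smox rose by 3.49 ± 0.41 in ear and by 1.29 ± 0.41 in back skin (adjusted p = 1.33e-07 and 0.0307). Sat1 rose by 1.31 ± 0.24 in ear and by 1.64 ± 0.24 in back skin (adjusted p = 8.62e-05 and 1.48e-05). Oat, which takes ornithine towards proline and glutamate, fell by 1.47 ± 0.14 in back skin (adjusted p = 7.53e-09), and the spermine synthase Sms fell by 0.71 ± 0.22 (adjusted p = 0.0269). The signed HDM effect in ear minus that in back skin was called above 0 for 8 of the 20 genes, as for 6.77% of all rows. Srm, Smox and Slc7a1, with the higher level change in ear, are among the 8, and so is Oat, through its fall in back skin.

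Nos2 was close to the array background in most samples. It lay above it in 4 of 8 HDM-treated ears, no sham ear, 4 of 8 HDM-treated back skins and 2 of 8 sham back skins. Its level ran from 3.46 to 8.21 in HDM-treated ears (median 5.43) and from 3.07 to 4.14 in sham ears (median 3.71). Its back skin level ran from 3.77 to 6.27 with HDM (median 4.50) and from 3.25 to 4.63 with sham (median 4.09). In ear it rose, with 7 of 8 treated samples above the sham mean and overlapping ranges. The fitted difference was 2.05 ± 0.54 (adjusted p = 0.00341; exact permutation p = 0.0109), and because all sham ears were below background, the fold is given as at least 1.41-fold. Raising dim values to the array background gave 0.99 (adjusted p = 0.0217). In back skin the difference was 0.63 ± 0.54 (adjusted p = 0.500; exact permutation p = 0.142). The HDM effect in ear minus that in back skin was 1.43 ± 0.77 (adjusted p = 0.256), so a difference between the sites was not established.

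The group means of Nos2 were in the order HDM-treated ear (5.70), HDM-treated back skin (4.72), sham back skin (4.10) and sham ear (3.65), and neighbours overlapped throughout. Of 15 genes of nitric oxide synthesis and its control, 13 were measured. In ear 3 rose and 1 fell, where 16.4% of all rows rose and 15.5% fell. In back skin 1 rose and 1 fell, near the shares of all rows (6.18% and 8.56%). Gch1, which makes the first intermediate of the cofactor tetrahydrobiopterin, rose at both sites, by 1.66 ± 0.30 in ear (adjusted p = 6.63e-05) and by 1.02 ± 0.30 in back skin (adjusted p = 0.0194). Ddah1, which breaks down methylated arginines that inhibit nitric oxide synthases, rose by 3.73 ± 0.45 in ear (adjusted p = 1.79e-07) and differed by -0.14 ± 0.45 in back skin (adjusted p = 0.883). The test of that difference between sites passed (3.87 ± 0.63, adjusted p = 0.000203). The endothelial synthase Nos3 passed the test at neither site and was above background on 5 of 32 arrays.

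Chil3 rose at both sites. In HDM-treated ears it lay between 6.84 and 12.22 (median 9.79), and in sham ears between 3.65 and 4.58 (median 4.05), below the background in all 8. In back skin it lay between 7.09 and 8.86 with HDM (median 7.95) and between 3.16 and 5.45 with sham (median 4.27), where 1 of 8 samples exceeded the background. The groups did not overlap at either site. The fitted difference in ear was 5.73 ± 0.57 (adjusted p = 7.63e-09), at least 24.2-fold. In back skin it was 3.66 ± 0.57 (adjusted p = 2.94e-05), and 3.14 when values under background were raised to it.

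The HDM effect on Chil4 differed between the sites. It lay between 6.10 and 12.97 in HDM-treated ears (median 10.68) and between 3.75 and 5.43 in sham ears (median 4.17), with 1 of 8 sham ears above background. The back skin level lay between 5.26 and 7.84 with HDM (median 5.78) and between 3.72 and 4.58 with sham (median 4.33). All HDM-treated samples were above all sham samples of their site. Such separation upwards held for 3 of the 5 genes, Arg1, Chil3 and Chil4, at each site, and for 4.99% of all rows in ear and 1.83% in back skin.

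In ear Chil4 rose by 5.62 ± 0.72 (adjusted p = 5.25e-07). In back skin the difference of 1.97 ± 0.72 missed the threshold (adjusted p = 0.0643), although the exact permutation p was 0.000155. The back skin difference was called when only the 16 back skin arrays entered the fit (adjusted p = 0.000712), since the wide spread of the treated ears then no longer entered the error. It was also called when the treated ear of mouse 3, 5, 7 or 8 was left out (adjusted p = 0.0464, 0.0485, 0.0483 and 0.0317). The HDM effect was larger in ear than in back skin by 3.66 ± 1.03 (adjusted p = 0.0192), and this was the 1 of 5 genes called in the test between sites, where 6.77% of all rows were called in that direction. For Chil3 the same difference was 2.07 ± 0.81 (adjusted p = 0.102, 95% interval 0.42 to 3.72). It was called without the HDM ear of mouse 3 (2.39, adjusted p = 0.0404) or of mouse 8 (2.49, adjusted p = 0.0235).

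**Figure D2:**
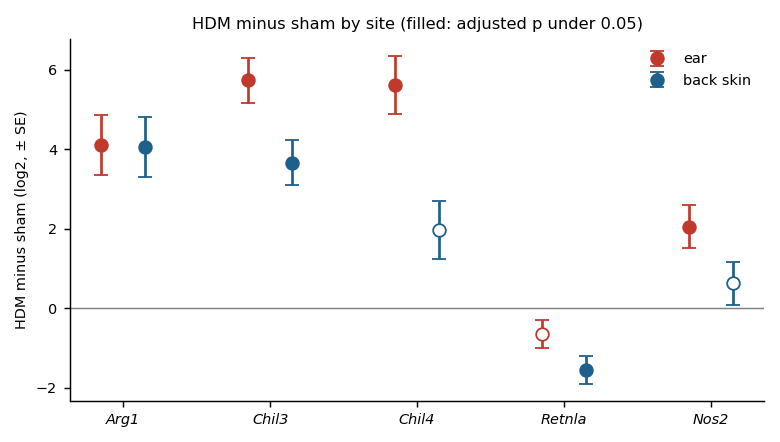
Difference HDM minus sham (log2, vertical axis) for each of the 5 genes in ear and in back skin. Points give the limma estimate and bars its SE, and filled points have an adjusted p under 0.05. Arg1 differs by 4.10 and 4.04 at the 2 sites, Chil4 by 5.62 in ear and 1.97 in back skin.

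Between the treated sites, Chil3 was higher in HDM-treated ear than in HDM-treated back skin by 1.86 ± 0.57 (adjusted p = 0.0131; exact permutation p = 0.0471), with 6 of 8 ears above the back skin mean. With only these 16 arrays in the fit the Chil3 call was lost (adjusted p = 0.0693). Chil4 was higher by 3.81 ± 0.72 (adjusted p = 0.000117), with 7 of 8 ears above it. Among all rows, 16.8% were higher and 11.2% lower in this comparison. The sham groups of ear and back skin differed by -0.20 for Chil3 and 0.15 for Chil4, neither called, at levels mostly under background. Both genes had HDM-treated ear as the highest group and HDM-treated back skin next, and for Chil3 the gap down to sham back skin was free of overlap.

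Of 8 other chitinases and chitinase-like genes, 7 were measured, 3 rose in ear and 1 in back skin, and none fell. Chil1 (also known as YKL-40 or BRP-39), likewise without chitinase activity, averaged 17.43 ± 0.81 in HDM-treated ear and 10.35 ± 1.13 in sham ear. Its back skin mean was 17.27 ± 0.41 with HDM and 13.00 ± 2.32 with sham. It rose by 7.08 ± 0.64 in ear and by 4.28 ± 0.64 in back skin (adjusted p = 1.06e-09 and 1.53e-05), and the effect was larger in ear (2.80 ± 0.91, adjusted p = 0.0436). Chit1, an active chitinase, rose by 1.69 ± 0.33 in ear (adjusted p = 0.00013) and differed by -0.46 ± 0.33 in back skin (adjusted p = 0.394). Chid1 rose by 0.805 ± 0.24 in ear (adjusted p = 0.00985) and differed by 0.09 ± 0.24 in back skin (adjusted p = 0.865). Ctbs and Ovgp1 passed the test at neither site. Chia1 and Chil6 were below background on all arrays.

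Retnla had the opposite pattern and a strong dependence on site. It lay between 6.94 and 9.70 in HDM-treated back skin (median 8.69) and between 8.58 and 11.12 in sham back skin (median 9.96). The ranges overlapped, with all 8 HDM-treated samples under the sham mean and 4 under the lowest sham sample. It fell by 1.56 ± 0.35 in back skin, with an adjusted p of 0.00233 and an exact permutation p of 0.00528. In ear it lay between 3.86 and 4.57 in HDM-treated samples, all below background, and between 4.16 and 5.68 in sham samples, of which 4 of 8 were above it. The difference was -0.65 ± 0.35 (adjusted p = 0.172, exact permutation p = 0.0246), with 12 of the 16 ears under background. Raising only the HDM-treated ears to background left a 1.01-fold difference, so a minimum fall in ear was not established. The HDM effect in ear minus that in back skin was 0.91 ± 0.50 (adjusted p = 0.270).

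HDM-treated ear had at least 12.2-fold less Retnla than HDM-treated back skin (fitted difference -4.24 ± 0.35, adjusted p = 4.17e-11), and sham ear differed from sham back skin by -5.14 ± 0.35 (adjusted p = 4.02e-13). No ear sample of either group reached the lowest back skin sample. Such separation downwards held for 3.70% of all rows between the treated sites and 4.14% between the sham sites. Retnla was the 1 of 5 genes called between the sham sites, where 15.6% of all rows were higher and 14.1% lower in ear. The order of its group means was sham back skin (9.98), HDM-treated back skin (8.43), sham ear (4.84) and HDM-treated ear (4.19), and the gap between back skin and ear was the place without overlap.

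Adipocyte markers, like Retnla, were lower in ear than in back skin and fell in HDM-treated back skin. In ear they fell too, where the Retnla difference was not called. Of 6 measured, 4 fell in back skin and all 6 in ear, and all 6 were lower in ear than in back skin with either agent. Their mean level lay between 6.24 and 7.79 in HDM-treated ears, 8.45 and 9.20 in sham ears, 10.31 and 11.23 in HDM-treated back skins, and 11.56 and 12.52 in sham back skins. No adipocyte marker was at background on all arrays, and the part of these cells in the Retnla values was not tested. Among relatives of Retnla, Retnlg, a gene of mouse neutrophils and bone marrow, rose in ear at least 69.5-fold (adjusted p = 3.42e-07). In back skin it differed by 3.18 ± 0.95 (adjusted p = 0.0212), and 2.57 (adjusted p = 0.0750) when dim values were raised to the array background. Retn, the adipocyte hormone resistin, fell by 0.96 ± 0.32 in ear (adjusted p = 0.0218). In back skin Retn differed by -0.39 ± 0.32 (adjusted p = 0.475). Retnlb was below background on all arrays.

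**Figure D3:**
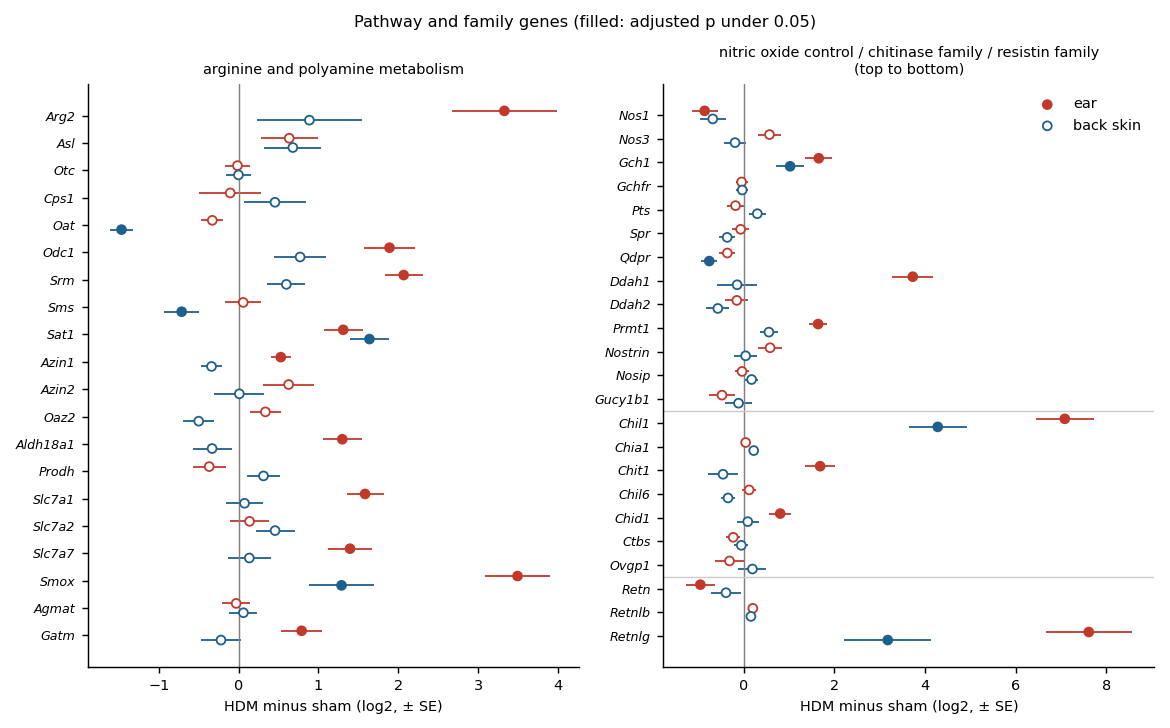
Difference HDM minus sham (log2, horizontal axis, with SE bars) in ear and back skin for the measured relatives of the 5 genes: 20 genes of arginine and polyamine metabolism on the left, and on the right 13 of nitric oxide control, 7 chitinase-family and 3 resistin-family genes. Filled points have an adjusted p under 0.05. Retnlg and Chil1 lie farthest to the right, and Oat in back skin lies farthest to the left.

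The treated ears differed widely from mouse to mouse. For Arg1 the 8 treated ears, mice 1 to 8, had levels of 12.64, 12.53, 6.76, 7.66, 13.02, 7.19, 11.32 and 6.67. For Chil4 they had 12.38, 11.81, 7.05, 7.45, 12.80, 9.55, 12.97 and 6.10. Nos2 had 7.54, 8.21, 3.46, 4.46, 7.76, 4.01, 6.39 and 3.77. Mice 1, 2, 5 and 7 held the 4 highest values for each of Arg1, Chil3, Chil4 and Nos2, and for Nos2 they were the 4 ears above background. Retnla was under background in all 8 ears and had no such order. In HDM-treated back skin mice 1, 2, 5 and 7 did not together hold the 4 highest values of any of these genes. Mice 3 and 4 led for Nos2 (6.27 and 6.05), mouse 7 for Chil4 (7.84) and mouse 2 for Arg1 and Chil3 (11.77 and 8.86).

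**Figure D4:**
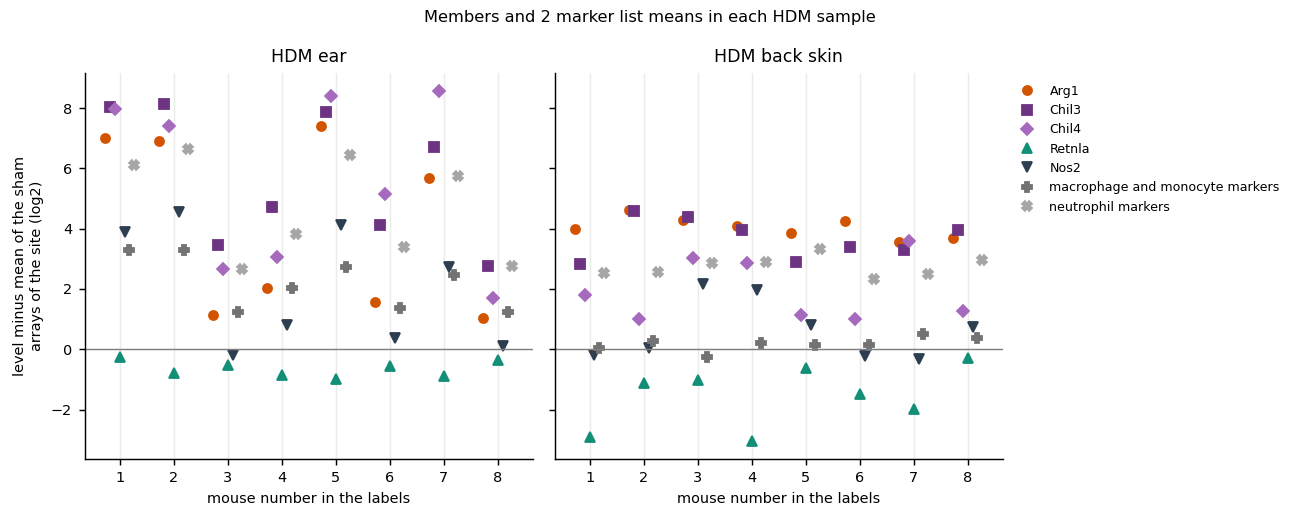
Level of each gene in every HDM-treated ear (left) and back skin (right) minus the mean of the 8 sham arrays of that site (log2, vertical axis), by mouse number. Grey symbols are the means of 12 macrophage and 12 neutrophil markers. In ear, mice 1, 2, 5 and 7 stand above the others for Arg1, Chil3, Chil4 and Nos2 and for both marker lists.

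Markers of leukocytes moved with these genes in ear. The mean of 12 macrophage and monocyte markers in mice 1 to 8 was 11.56, 11.57, 9.49, 10.31, 11.00, 9.65, 10.72 and 9.50 in treated ears, so that mice 1, 2, 5 and 7 were again the highest. It lay between 7.99 and 8.59 in sham ears. By limma, 11 of the 12 rose in ear, Fcgr3 by 3.96, Aif1 by 3.93 and C1qb by 3.30 among them, and Mertk fell by 0.91. With values raised to the array background, the Aif1 difference in ear was 2.83. In back skin none of the 12 passed the test, with a median difference of -0.01, and their mean lay between 9.29 and 10.04 with HDM and between 8.83 and 10.43 with sham. That result leans on sham back skin mice 1 and 2, which had the highest sham means (10.43 and 10.34, against 8.83 to 10.13 in the other 6). Without them, C1qa (1.19, adjusted p = 0.0259) and Fcgr3 (adjusted p = 0.00730) rose in back skin and the median difference of the 12 was 0.34. Arg1 and Chil3 differed by 3.55 and 3.90 in that fit. With only back skin arrays in the fit, 2 of the 12 rose as well.

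Neutrophil markers rose at both sites, 8 of 12 in ear and 7 of 12 in back skin, with 1 lower at each site. Their mean lay between 6.86 and 10.84 in HDM-treated ears, 3.82 and 4.89 in sham ears, 7.52 and 8.54 in HDM-treated back skins, and 4.62 and 6.27 in sham back skins. Of these markers, 2 were below background on all arrays. Of 6 eosinophil markers, Epx, Prg2 and Il5ra were below background on all 32 arrays. In ear 2 of the 6 were called higher, Siglecf by 0.36 (1 of 8 treated ears above background) and Alox15 by 0.96 (no ear above background), and none was called in back skin. Of 6 T cell markers, 3 rose in ear and 2 in back skin. Their mean lay between 7.79 and 8.67 in the treated ears of mice 1, 2, 5 and 7, between 6.13 and 6.65 in the other treated ears and between 5.90 and 6.36 in sham ears. In back skin it lay between 6.56 and 7.67 with HDM and between 5.62 and 6.91 with sham. The overlap there came from sham mice 1 and 2 (6.91 and 6.785). The other sham back skins reached 6.44, under the lowest HDM sample.

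For 9 keratinocyte markers the mean level shifted in ear, but their median difference was 0.01 there and 0.16 in back skin. This mean lay between 17.10 and 17.31 in HDM-treated ears and between 15.62 and 16.23 in sham ears. The ear ranges did not overlap, with little spread among the treated ears. In back skin it lay between 16.77 and 17.27 with HDM and between 16.10 and 17.05 with sham. In ear 4 of the 9 rose and 2 fell, and in back skin 3 rose and 2 fell. The part of any of these cells in the values of the 5 genes was not tested.

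Among other markers of alternative macrophage activation, the IL-4-induced state, 13 of 16 rose in ear and 1 fell. Some of them were dim, and 11 rose and 2 fell in ear with values raised to the array background. In back skin none rose and 3 fell. Sham back skin mice 1 and 2 had the highest sham means of these markers, 9.67 and 9.62, against 8.10 to 8.86 in the others. Without them 3 still fell, and the median difference in back skin was 0.04 in place of -0.08. The mannose receptor Mrc1 rose by 3.31 ± 0.36 in ear (adjusted p = 3.35e-08) and differed by 0.51 ± 0.36 in back skin (adjusted p = 0.392). The lectin Mgl2 fell by 2.29 ± 0.40 in back skin (adjusted p = 0.000123), and its relative Clec10a fell by 1.32 ± 0.28 (adjusted p = 0.00143). The chemokine Ccl22 fell by 2.42 ± 0.47 in back skin (adjusted p = 0.000436) and rose by 3.20 ± 0.47 in ear (adjusted p = 3.07e-06). The signed HDM effect in ear minus that in back skin was called above 0 for 11 of the 16, against 6.77% of all rows, and for Mgl2 and Clec10a the change was the greater in back skin. Of 15 other markers of classical activation, 3 were below background on all arrays. Of the 15, 9 rose in ear and 1 in back skin, and none fell. That gene was Acod1, which makes the antimicrobial metabolite itaconate, at least 13.4-fold higher in ear and at least 5.52-fold higher in back skin (adjusted p = 5.69e-06 and 0.00174).

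The signals known to induce these genes were followed as well. Il4 and Il13 were below background on all 32 arrays, and Ifng was above it on 1 treated ear and 1 sham back skin. Of 14 measured genes of the IL-4, IL-13 and STAT6 pathway, 6 rose and 2 fell in ear, and 4 rose and 2 fell in back skin. The receptor chain Il4ra rose by 3.98 ± 0.40 in ear and by 1.54 ± 0.40 in back skin (adjusted p = 7.63e-09 and 0.00749). Stat6 itself differed by 0.23 ± 0.15 in ear and by 0.20 ± 0.15 in back skin, and neither passed the test. Of 16 measured genes that act upstream of Nos2 through interferon gamma, Toll-like receptors or NF-kB, 15 rose in ear and 4 in back skin. The cytokine Il1b rose at least 64.9-fold in ear (adjusted p = 3.09e-07) and by 3.84 ± 0.88 in back skin (adjusted p = 0.00246). Tnf rose by 2.52 ± 0.40 in ear (adjusted p = 1.14e-05) and differed by 0.45 ± 0.40 in back skin (adjusted p = 0.516).

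The genes with the most similar profile were found among 12367 genes by the mean absolute difference of centred log2 levels over the 32 arrays, as a description without a test. For Arg1 these were the beta-defensin Defb4 (0.67), the cornified envelope gene Sprr2h (0.72) and the carbonic anhydrase Car2 (0.85). Chil3 was nearest to the chemokine receptor Ccr1 (0.51) and the myeloid lectins Clec4d (0.63) and Clec4e (0.64). Its distance to Chil4 was 0.98 and to Arg1 1.37. Chil4 was nearest to the cytokine Il19 (0.85), the neutrophil collagenase Mmp8 (0.87) and Wfdc17 (0.87). Retnla was nearest to the smooth muscle genes Myh11 (0.73) and Actg2 (0.76) and the lipid droplet gene Cidec (0.75). Nos2 was nearest to Ccrl2 (0.48), Tspan3 (0.51) and Emilin2 (0.52).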

How the data were processed

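The authors deposited log2 levels. The submitters' processing notes name RMA and the Transcriptome Analysis Console, without versions or genome build. Of 28846 rows, 6640 array controls were left out and 22206 tested. Of these, 19572 had 1 gene symbol and 2634 none. Array medians lay between 5.91 and 6.26, and 54.4% to 62.3% of rows exceeded the array background. The number of arrays limits the precision. Moderated linear models (limma 3.58.1, R 4.3.3) covered 4 groups of 8 without covariates, with Benjamini-Hochberg adjustment. Exact permutation tests, unadjusted, covered 5 genes in 4 comparisons. A group entirely below background was given a bound. The code was tested on simulated data. The 5 genes and the 15 gene lists (160 of 187 genes measured) were chosen with earlier results of these data known. Genes other than the 5 are named from those lists, or as the 3 nearest profiles. Alternatives covered the arrays in the fit, dim rows, array medians, a background floor, array weights, mouse number as a block and, added after seeing the data, leaving out each array.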

Additional observations from a re-analysis of the deposited data

Results flagged for a closer look

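Chil4 was singled out because its HDM effect differed between the sites by a test of the difference itself. The effect was 5.62 in ear and 1.97 in back skin, and ear minus back skin was 3.66 (SE 1.03, limma adjusted p = 0.0192). It stayed called in all 32 fits that left out 1 array, with values of 3.23 to 4.21 and adjusted p of 0.00260 to 0.0364. No gene of the 5 had a sample far from its group by Dixon's criterion in any of the 4 groups.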

How the results depend on the processing

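Nearly all values kept their direction and their side of the threshold; 205 of 220 did so under the alternatives other than leaving out arrays. With only the arrays of the groups compared, Chil4 in back skin was called (1.97, adjusted p = 0.000712), as were Retnla in ear (-0.65, 0.0423) and Arg1 between sham sites (-1.54, 0.0101), while Chil3 between treated sites was lost (1.86, 0.0693) and 2 genes were called between sham sites in place of 1. Chil4 in back skin was also called without dim rows (1.97, 0.0442), with equal array medians (2.09, 0.0455) and with array weights (1.94, 0.0459). Weights also called Arg1 between treated (-1.92, 0.0342) and sham sites (-1.82, 0.0364), so that 2 genes were called there. The small Arg1 effect between sites reversed with equal medians (-0.07) and weights (-0.10). With values raised to the array background, which averaged highest in sham ear, 15862 rows were called in ear (7076 without), 12103 for the effect between sites (2251) and 15246 between sham sites (6593). Then 2 genes were called for the effect between sites, Retnla among them (1.08, 0.0451), and between sham sites Chil3 (0.40) and Nos2 (0.46) reversed. Chil3 between sham sites also reversed without sham back skin mice 1 and 2 (0.036). Leaving out each array in turn gave 1.73 to 2.10 for Chil4 in back skin, -0.42 to 0.49 for Arg1 between sites, 1.72 to 2.49 for Chil3 between sites, -1.96 to -1.05 for Arg1 between treated sites, and 1 to 2 genes called between sites. Same-numbered deviations correlated at -0.08 to 0.14 between HDM ear and back skin. Such values from different tissues cannot tell whether the samples came from the same animals. With mouse number as a block, Chil4 in back skin had an adjusted p of 0.0698, and no call among the 5 genes changed. Choosing among several rows of a symbol was not run, since each symbol had 1 row. The causes of these changes were not tested, apart from the background floor and the smaller fits. Background limits Nos2, Retnla in ear and the sham levels of Chil3 and Chil4.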
